A study of Glycine max with 12 samples.

Results

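Chlorophyll is made and taken apart in the leaf by separate sets of enzymes. Here 5 soybean (Glycine max) genes, listed as chlorophyll synthesis or stay-green genes, were followed. CHLI1a (Glyma.13G232500.Wm82.a2.v1) and CHLI1b (Glyma.15G080200.Wm82.a2.v1) encode the I subunit of magnesium chelatase. D1 (Glyma.01G214600.Wm82.a2.v1) and D2 (Glyma.11G027400.Wm82.a2.v1) are the paired stay-green loci, and G (Glyma.01G198500.Wm82.a2.v1) is the locus of green seed coat. The genes were picked by name and ID, with earlier results of these data known, and they are 5 of the 39811 genes measured. The gene IDs place them on chromosomes 13, 15, 1, 11 and 1 of the Wm82.a2 annotation, in that order.

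Magnesium chelatase inserts magnesium into protoporphyrin IX, the first committed step of the chlorophyll branch of tetrapyrrole synthesis. Its I subunit is an ATPase that works together with the D and H subunits. Stay-green proteins of the family to which D1 and D2 belong remove magnesium from chlorophyll a, which opens the breakdown pathway, and plants that lose them keep green leaves or seeds. D1 and D2 here are these loci and not the photosystem II reaction centre proteins of the same names. G encodes a protein of the CAAX amino-terminal protease family, known in soybean for green seed coat and seed dormancy. It is called a stay-green gene but is not an enzyme of the breakdown pathway, so it was kept apart when synthesis was set against breakdown.

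Leaf RNA was sequenced from plants given 5 µM (normal) or 100 µM (high) manganese (Mn) in their nutrient solution as the sulfate, starting when the fifth leaf appeared. Old and young leaves were taken at each Mn level, and each of the 4 groups held 3 libraries (labels D2Y for old and D4Y for young leaves). The labels name no cultivar, leaf position, sampling day or number of plants per library, and their extraction text speaks of nodules while each sample is labelled as leaf. Gene names do not stand in the deposited table, so leaf and nodule markers could not be looked up, and the other genes of the pathway were not analysed here. Nothing in the labels says that the libraries came from separate plants, so p-values measure the spread between these libraries, which may be technical. Whole-leaf RNA does not tell fewer cells of a type from less RNA per cell.

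Values are FPKM, in which the fragments of a gene are divided by its length in kilobases and by the depth of the library, so levels of different genes can be set side by side. Libraries held 17774122 to 21070730 fragments. All 5 genes were among the 28267 tested, the genes that reached an FPKM of 1 in 3 or more libraries. Replicates differed most in old leaves at 5 µM, where the median SD over all tested genes was 0.27 on the log2 scale, against 0.14 in each of the other groups. Differences in log2(FPKM + 1) were tested with limma over all 28267 genes, and a gene was called below a Benjamini-Hochberg adjusted p of 0.05.

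G was the most abundant of the 5 genes in all 12 libraries, with an FPKM of 154 to 335. Its level was at or above that of 98.3% of tested genes or more in each library. CHLI1a exceeded CHLI1b in all 12 libraries, by 1.06 to 1.83 times, and D2 exceeded D1 in all 12, by 2.73 to 8.16 times. D1 was the least abundant member throughout, with 83 to 575 fragments in a library. Its lowest FPKM, 3.48 in young leaves at 5 µM (83 fragments), had an exact 95% Poisson interval of 2.77 to 4.31, which covers counting error only. In each group the SD between replicates of CHLI1a, CHLI1b, D2 and G exceeded the error of counting fragments. For D2 in young leaves at 5 µM the SD between replicates was 47.4% of the mean and the mean counting error 3.48%. For D1 in young leaves at 100 µM the figures were 9.12% and 9.35%, so there the spread between replicates was no larger than counting error. In the other groups of D1 the spread exceeded counting error.

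**Figure D1:**
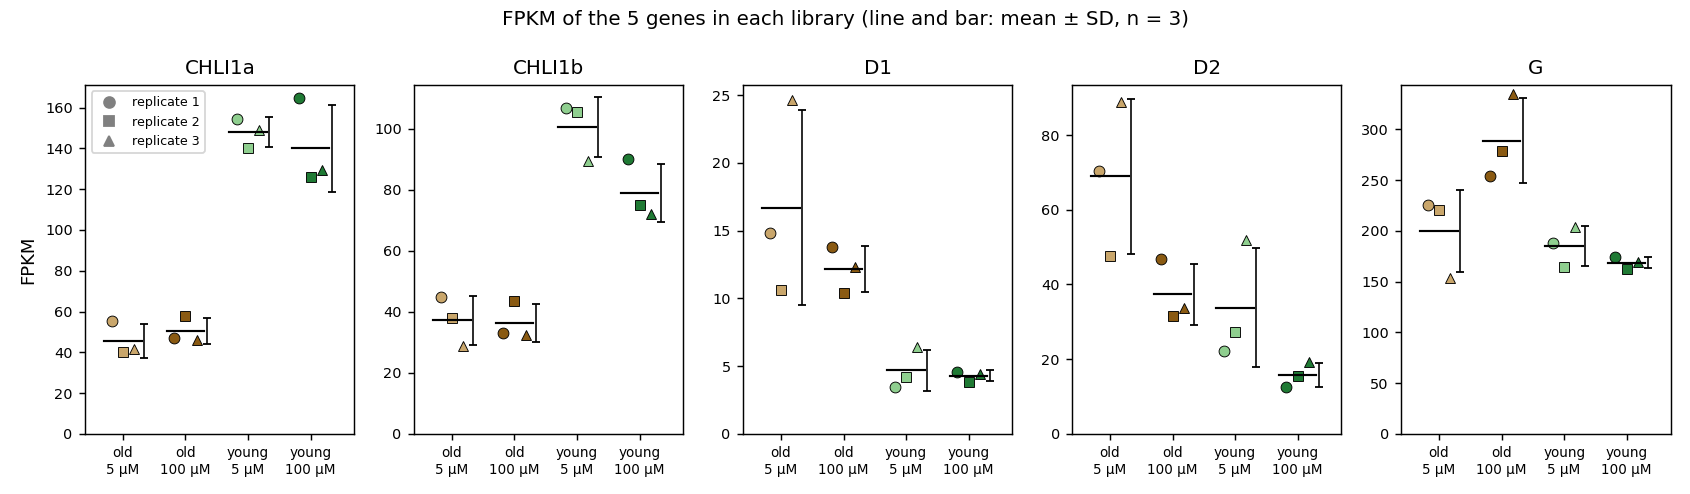
FPKM (linear axes from 0) of CHLI1a, CHLI1b, D1, D2 and G in each of the 12 libraries, by leaf age and Mn level. Symbols mark the replicate number, horizontal lines the group mean and bars the SD (n = 3). The CHLI genes are higher and D1 lower in all young-leaf libraries than in any old-leaf library, D2 is lower at 100 µM than at 5 µM in each leaf age, and G is highest in old leaves at 100 µM.

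The synthesis genes were higher in young than in old leaves at each Mn level. At 5 µM Mn the FPKM of CHLI1a was 55.3, 40.2 and 41.4 in replicates 1 to 3 of old leaves and 155, 140.3 and 149 in those of young leaves. Every young-leaf library lay above every old-leaf one. The mean rose from 45.6 ± 8.40 in old to 148 ± 7.26 in young leaves (SD, n = 3), a ratio of 3.25 and a log2 difference of 1.69 (SE 0.16, adjusted p = 1.16e-05). At 100 µM the old-leaf values were 47.2, 57.8 and 46.0 and the young-leaf values 165, 126 and 129, again without overlap. The log2 difference was 1.45 (SE 0.16, adjusted p = 3.01e-05), a ratio of means of 2.78.

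CHLI1b, the second copy of the subunit, was also higher in young leaves. At 5 µM its FPKM was 44.9, 37.9 and 28.7 in old and 107, 105.5 and 89.4 in young leaves. At 100 µM it was 33.2, 43.7 and 32.4 in old and 90.0, 74.9 and 72.0 in young leaves. Old and young leaves did not overlap at either Mn level. The log2 difference of young against old leaves was 1.43 at 5 µM (SE 0.18, adjusted p = 8.8e-05) and 1.10 at 100 µM (SE 0.18, adjusted p = 0.000508). The ratios of means were 2.71 and 2.17.

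The breakdown genes had the opposite order. The FPKM of D1 at 5 µM was 14.8, 10.6 and 24.7 in old leaves and 3.48, 4.17 and 6.37 in young leaves, and at 100 µM it was 13.8, 10.4 and 12.4 in old and 4.59, 3.85 and 4.43 in young leaves. Each young-leaf library lay below every old-leaf library. The log2 difference of young against old leaves was -1.60 at 5 µM (SE 0.26, adjusted p = 0.000565) and -1.31 at 100 µM (SE 0.26, adjusted p = 0.00198). Old leaves held 3.57 times the mean FPKM of young leaves at 5 µM and 2.84 times at 100 µM. As young-to-old folds the log2 differences amount to 0.331 and 0.403, smaller changes than the young-to-old ratios of means of 0.28 and 0.353. The added 1 FPKM shrinks the change of a gene at this level. With 0.1 FPKM added instead, the log2 differences were -1.77 and -1.48. A ratio of means also differs from a difference of mean logs.

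D2 was lower in young leaves too, with more spread. At 5 µM its FPKM was 70.4, 47.5 and 88.8 in old and 22.1, 27.2 and 52.0 in young leaves. Replicate 3 of young leaves lay above replicate 2 of old leaves, so the groups overlapped. At 100 µM the values were 46.7, 31.5 and 33.8 in old and 12.7, 15.5 and 19.1 in young leaves, without overlap. The log2 difference was -1.06 at 5 µM (SE 0.31, adjusted p = 0.0166) and -1.19 at 100 µM (SE 0.31, adjusted p = 0.00987). The call at 5 µM was lost with only the 6 libraries of that Mn level in the fit (adjusted p = 0.0541), and without replicate 3 of old leaves (log2 difference -0.85, adjusted p = 0.0599). It was also lost without replicate 1 (-0.81, adjusted p = 0.0741) or replicate 2 (-0.95, adjusted p = 0.0559) of young leaves, while at 100 µM the call held in all 22 alternative settings.

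G was called between leaf ages at 100 µM and not at 5 µM. At 5 µM its FPKM was 226, 220.2 and 154 in old and 188, 164 and 204 in young leaves, which overlapped (log2 difference -0.09, SE 0.17, 95% interval -0.47 to 0.28, adjusted p = 0.672). At 100 µM it was 254, 278 and 335 in old and 174, 163 and 169 in young leaves, and every old-leaf library lay above every young-leaf one. The log2 difference of young against old leaves was -0.76 (SE 0.17, adjusted p = 0.00405), with an old-to-young ratio of means of 1.71. Whether the leaf age difference of G itself differs between Mn levels is the same contrast as the difference between Mn responses, given below, which did not pass.

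In all, 4 of 5 genes were called between leaf ages at 5 µM, 2 higher and 2 lower in young leaves, where 45.5% of all tested genes were called (17.5% higher and 28% lower). At 100 µM 5 of 5 were called, 2 higher and 3 lower, where 40.6% of tested genes were called (22.8% higher and 17.8% lower). Groups did not overlap for 3 of 5 genes at 5 µM, against 52.1% of tested genes, and for 5 of 5 at 100 µM, against 60.7%. The log2 difference of CHLI1a at 5 µM was above that of 96.6% of tested genes and that of CHLI1b above 95.3%. At the other end, 3.36% of tested genes had a difference at or below that of D1 and 7.95% at or below that of D2.

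**Figure D2:**
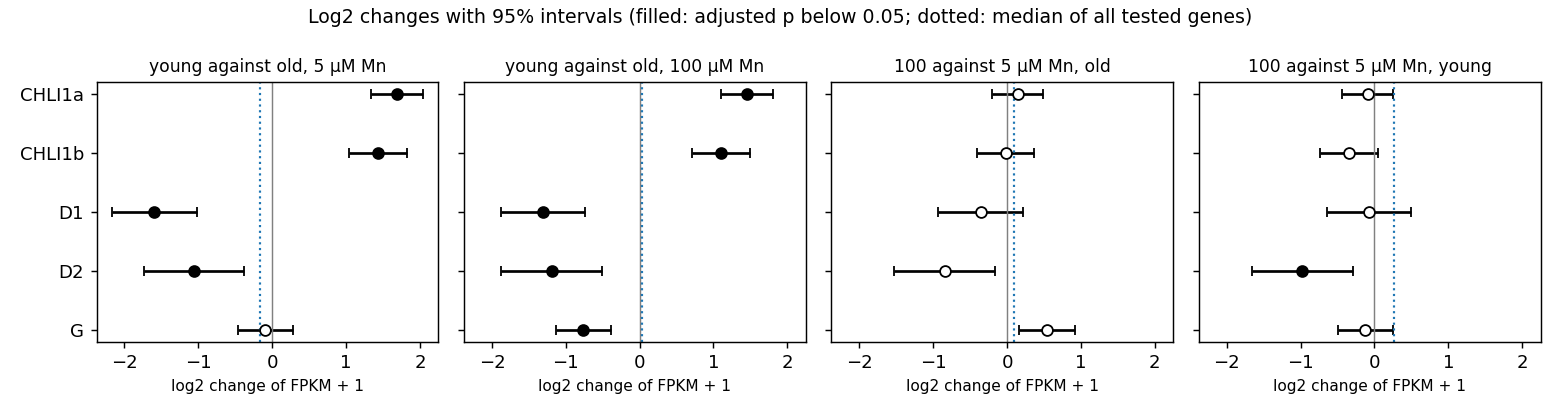
Log2 change of FPKM + 1 with its 95% interval from limma for the 5 genes in 4 comparisons; filled points have an adjusted p below 0.05, and the dotted line is the median over all 28267 tested genes. The CHLI genes lie at 1.10 to 1.69 and D1 and D2 at -1.60 to -1.06 in the leaf age comparisons, and D2 in young leaves is the single filled point in the Mn comparisons.

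Most of these genes had no called change at high Mn, as was the case for most tested genes. In young leaves 1 of 5 was called, the lower D2, where 35.2% of tested genes were called (29.6% higher and 5.58% lower). D2 went from 22.1, 27.2 and 52.0 at 5 µM to 12.7, 15.5 and 19.1 at 100 µM, so that every high-Mn library lay below every normal-Mn library. It was the 1 member whose groups did not overlap, as was the case for 61.3% of tested genes. Its mean of 33.8 ± 16.0 fell to 15.8 ± 3.24 (SD, n = 3), a ratio of 0.467 and a log2 change of -0.98 (SE 0.31, adjusted p = 0.0317). Replicate 3 at 5 µM was the highest young-leaf library. Without it the log2 change was -0.63 (adjusted p = 0.123), and the call was also lost without replicate 1 (-0.84, adjusted p = 0.0987) or replicate 2 (-0.97, adjusted p = 0.0779) of the high-Mn group.

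CHLI1b in young leaves stood at 107, 105.5 and 89.4 at 5 µM and at 90.0, 74.9 and 72.0 at 100 µM. The groups overlapped in 1 library, as replicate 1 at 100 µM just exceeded replicate 3 at 5 µM, and the log2 change of -0.35 did not pass (SE 0.18, adjusted p = 0.141). In this comparison the log2 changes of the 5 members were at or above those of only 2.32 to 20.2% of tested genes. The median log2 change of all tested genes there was 0.27. After median-of-ratios rescaling, which removes such a common shift, the log2 change of CHLI1b was -0.70 and passed (adjusted p = 0.0351). It also passed with the 6 young-leaf libraries alone (-0.35, adjusted p = 0.0459) and with library weights (-0.39, adjusted p = 0.037). CHLI1a, D1 and G had log2 changes of -0.09, -0.07 and -0.13 in young leaves (adjusted p = 0.669, 0.84 and 0.566), and none of the 3 was called in any alternative setting. After median-of-ratios rescaling their log2 changes were -0.44, -0.36 and -0.48 (adjusted p = 0.0956, 0.273 and 0.149). That of D2 was then -1.31 (adjusted p = 0.0105).

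In old leaves 0 of 5 genes were called by limma for Mn, where 16.1% of tested genes were called (10.8% higher and 5.31% lower), and 2 of 5, D2 and G, had an unadjusted p below 0.05. Voom, which fits the recovered fragment numbers, called 1 of 5, G. D2 went from 70.4, 47.5 and 88.8 at 5 µM to 46.7, 31.5 and 33.8 at 100 µM. The groups did not overlap, though the lowest normal-Mn and highest high-Mn libraries were close. The log2 change was -0.84 (SE 0.31, 95% interval -1.52 to -0.16, adjusted p = 0.0876), and it passed in 2 of 22 alternative settings.

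G in old leaves went the other way, from 226, 220.2 and 154 to 254, 278 and 335, also without overlap. Groups did not overlap for 29.4% of all tested genes in this comparison. Its log2 change of 0.54 lay at the threshold (SE 0.17, 95% interval 0.17 to 0.91, adjusted p = 0.0514) and passed in 5 of 22 alternative settings, with adjusted p from 0.0274 to 0.244. Replicate 3 at 5 µM, the low library of the group, moved this value. Without it the log2 change was 0.36 (adjusted p = 0.0637). Without replicate 1 at 5 µM the change of G was 0.64 (adjusted p = 0.0356).

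CHLI1a and CHLI1b showed log2 changes of 0.15 (95% interval -0.20 to 0.49) and -0.02 (95% interval -0.41 to 0.37) with Mn in old leaves, with adjusted p of 0.585 and 0.961. D1 had -0.36 (95% interval -0.93 to 0.21, adjusted p = 0.391), which became -0.05 without replicate 3 at 5 µM, whose FPKM of 24.7 was the highest of D1 anywhere. Without replicate 2 at 5 µM the change of D1 was -0.62 (adjusted p = 0.126). These intervals leave room for changes of modest size in either direction.

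The Mn response did not differ detectably between leaf ages for these genes: 0 of 5 were called by limma and 0 of 5 by voom, against 4.67% of tested genes by limma (3.75% higher and 0.916% lower), and 1 of 5 had an unadjusted p below 0.05. That gene was G, with a difference (young minus old response) of -0.67 on the log2 scale (SE 0.24, 95% interval -1.20 to -0.14, adjusted p = 0.118). For D2 the difference was -0.13 (SE 0.44, 95% interval -1.10 to 0.83, adjusted p = 0.877), so its lower level at high Mn in young leaves was not shown to be greater or smaller than in old leaves. The Mn and leaf age comparisons use the same 4 groups, and each group enters more than 1 of them.

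Synthesis was then set against breakdown within each library, as the summed FPKM of CHLI1a and CHLI1b over that of D1 and D2. This ratio was 1.18, 1.34 and 0.618 in old leaves at 5 µM and 1.33, 2.43 and 1.70 in old leaves at 100 µM. In young leaves it was 10.2, 7.84 and 4.09 at 5 µM and 14.8, 10.4 and 8.55 at 100 µM. All 6 young-leaf libraries lay above all 6 old-leaf libraries. In 1 library, replicate 3 of old leaves at 5 µM, the summed FPKM of D1 and D2 exceeded that of CHLI1a and CHLI1b. The ratio compares RNA levels, and enzyme activity and chlorophyll turnover were not measured. A ratio of 1 therefore marks no balance between synthesis and breakdown of chlorophyll. As a score over genes chosen with earlier results known, the ratio was given no test.

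**Figure D3:**
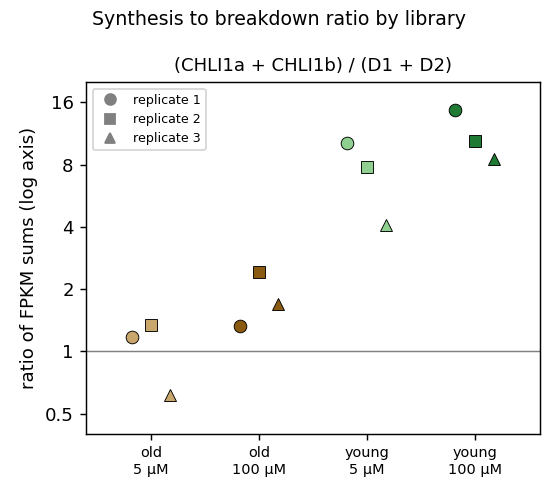
Ratio of the summed FPKM of CHLI1a and CHLI1b to that of D1 and D2 in each library (log axis), by leaf age and Mn level; symbols mark the replicate number and the line marks a ratio of 1. Old-leaf libraries lie between 0.618 and 2.43 and young-leaf libraries between 4.09 and 14.8.

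Both sides of the ratio moved with leaf age. The summed CHLI genes went from 82.8 ± 15.6 in old to 249 ± 11.7 in young leaves at 5 µM (SD, n = 3). At 100 µM they had 86.7 ± 12.8 in old and 219 ± 31.0 in young leaves. The D1 and D2 sum was 85.6 ± 27.7 in old and 38.5 ± 17.5 in young leaves at the lower Mn level, and 49.5 ± 9.79 and 20.1 ± 3.21 at the higher. With Mn the D1 and D2 sum was the side with the larger relative difference of means. In old leaves it spanned 58.1 to 113.5 at 5 µM and 41.8 to 60.5 at 100 µM, which overlap, while in young leaves it spanned 25.6 to 58.4 and 17.2 to 23.6, which do not. Fragments that match both copies of a pair could be given to either copy. Such a trade changes the summed FPKM of the pair only through the lengths of the copies. These were 1663 and 1648 bases for CHLI1a and CHLI1b and 1311 and 1366 bases for D1 and D2.

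On the log2 scale, the mean log2(FPKM + 1) of the CHLI genes minus that of D1 and D2 was 0.30 ± 0.65 in old leaves at 5 µM and 0.97 ± 0.41 at 100 µM. Young leaves had 3.19 ± 0.57 at the lower and 3.50 ± 0.30 at the higher Mn level (SD, n = 3). Leaf age thus separated the groups by 2.89 at 5 µM and 2.53 at 100 µM. The Mn differences of 0.66 in old and 0.31 in young leaves were of the size of the spread between replicates. They were 0.29 and -0.01 without replicate 3 of the 5 µM group of the same leaf age, its lowest library (-0.44 in old and 2.56 in young leaves). Leaving out the highest 5 µM library widens them instead. That library was replicate 2 in old leaves (0.75) and replicate 1 in young leaves (3.67).

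The share of each copy in the FPKM of its pair varied between libraries. CHLI1a made up 51.5 to 59.1% of the pair's FPKM in old leaves at 5 µM, 57.0 to 58.7% in old leaves at 100 µM, 57.1 to 62.6% in young leaves at 5 µM and 62.7 to 64.7% in young leaves at 100 µM. The last group lay above the other 9 libraries, by a margin that is small next to the range of the 5 µM groups. D2 made up 78.3 to 82.6% of the D1 and D2 sum in old leaves at 5 µM and 73.2 to 77.2% at 100 µM. In young leaves its share was 86.4 to 89.1% at 5 µM and 73.4 to 81.2% at 100 µM. In each leaf age the share of D2 was thus lower in every high-Mn library than in every normal-Mn library. These shares were not tested, and how the authors assigned fragments that match both copies of a pair is not given in the sources used here.

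**Figure D4:**
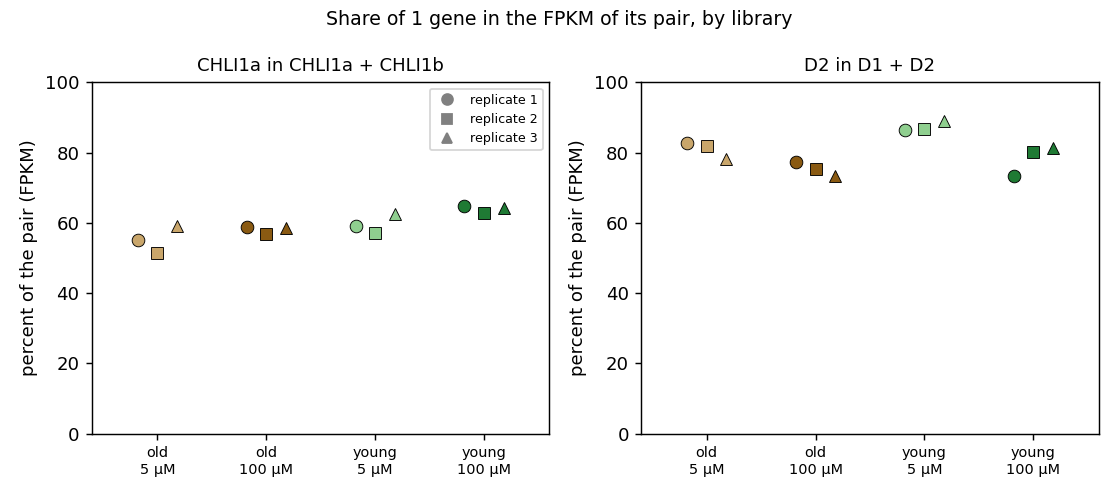
Share of CHLI1a in the summed FPKM of CHLI1a and CHLI1b (left) and of D2 in that of D1 and D2 (right), in percent, in each library by leaf age and Mn level; symbols mark the replicate number. CHLI1a holds 51.5 to 64.7% of its pair, and the share of D2 is 78.3 to 89.1% at 5 µM and 73.2 to 81.2% at 100 µM.

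Deviations of single libraries from their group means were compared on the log2 scale. In replicate 3 of old leaves at 5 µM, D1 and D2 lay 0.62 and 0.41 above their group means, while CHLI1b and G lay at -0.34 and -0.36 from theirs. In replicate 3 of young leaves at 5 µM, D1 lay 0.41 and D2 0.70 above the group mean, CHLI1b stood at -0.16 and CHLI1a at 0.01. Replicate 2 of old leaves at 100 µM had the reverse, with CHLI1a and CHLI1b at 0.20 and 0.27 and D1 and D2 at -0.20 and -0.22. In replicate 2 of old leaves at 5 µM, D1 and D2 stood at -0.53 and -0.48. CHLI1a went the same way there, at -0.17, while CHLI1b stood at 0.05. In replicate 1 of young leaves at 100 µM, which had the highest ratio of synthesis to breakdown, D1 stood at 0.08 and D2 at -0.28, so D1 and D2 did not always deviate in 1 direction. The labels give no harvest, extraction or sequencing batch to set beside these deviations. Values without single libraries are given above for some Mn comparisons only. Without replicate 2 of old leaves at 5 µM the Mn change in old leaves was -0.62 for D1 and -1.08 for D2. Without replicate 2 of old leaves at 100 µM it was -0.26 for D1 and -0.73 for D2.

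The likeness of patterns was measured as the root mean square difference between the log2(FPKM + 1) values of 2 genes over the 12 libraries, each gene centred on its own mean. By this measure CHLI1b was the 123rd nearest of 28266 genes to CHLI1a, at 0.22, and D1 was the 74th nearest to D2, at 0.44. D2 was the 345th nearest to D1. G was close to no other member, with D1 as its nearest member at 0.72 and rank 22048. Seen from D1, G had rank 8126, and seen from D2 it had rank 7023. The CHLI genes lay farther from D1 and D2 than G did, at 1.34 to 1.56. The single nearest gene was Glyma.03G230300.Wm82.a2.v1 for CHLI1a, at 0.12, with mean FPKM of 5.74 and 5.84 in old and 21.8 and 19.4 in young leaves at 5 and 100 µM.

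For CHLI1b the nearest gene was Glyma.13G113200.Wm82.a2.v1, at 0.09, and for G it was Glyma.18G000300.Wm82.a2.v1, at 0.08, with mean FPKM of 89.5 and 132 in old and 82.0 and 77.9 in young leaves. D1 was nearest to Glyma.12G224700.Wm82.a2.v1, at 0.24, and D2 to Glyma.15G022400.Wm82.a2.v1, at 0.25. The gene nearest to D2 had an FPKM of at most 4.64, a range in which the added 1 FPKM shrinks differences. The 12 libraries fall into 4 groups, so differences between groups enter a likeness together with those between replicates. The share of each was not computed. The order of groups need not be the same. The gene nearest to D2 had mean FPKM of 0.972 in old leaves at 100 µM and 1.15 in young leaves at 5 µM. D2 had 37.3 and 33.8 there. No names for these 5 IDs stand in the files.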

How the data were processed

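The authors deposited 1 table of FPKM per gene and library. The tools in the submitters' processing notes are HISAT2 2.1.0, Bowtie2 2.2.3 and DESeq2 1.6.3, without their roles. How fragments were counted, and how those that match several copies were treated, is not given in the sources used here. IDs end in Wm82.a2.v1, and 0 of 39811 matched the RefSeq table of assembly Glycine_max_v4.0, so no sequences or pathway lists were used.

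Whole fragment numbers were recovered from ratios of FPKM between libraries, for 39811 of 39811 genes within 0.02 of a whole number. One model of 4 group means on log2(FPKM + 1) was fitted using limma 3.58.1 under R 4.3.3, with trended moderated variances, and tests were 2-sided. Recovery and test were tested on simulated data. The 5 genes were fixed by their names; the genes and tests were chosen with earlier results of these data known. The gene with the smallest difference of pattern was named for each member by a written rule. Alternatives covered pseudocounts of 0.1 and 5, filters, scaling, variance models, voom, the replicate number and each library left out.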

Additional observations from a re-analysis of the deposited data

How the results depend on the processing

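Of 300 values with 1 library left out, 281 kept their direction and side of the threshold, and of 245 under other settings 230 did. Many of these directions could not move, so the tallies overstate how far they were tried. Leaving out a library outside the 2 compared groups does not alter the log2 change. Nor do the filters, the replicate term or a fit of only the compared libraries, and there only the adjusted p could move. The calls of CHLI1a, CHLI1b and D1 between leaf ages held in all 22 settings at each Mn level, as did those of D2 and G at 100 µM. The count of members called for Mn in old leaves, 0 of 5, was 1 with a mean FPKM of at least 5, with quantile normalization and with voom, 2 with library weights, and 0 to 2 over all settings; with 1 library left out it ran from 0 to 1. In young leaves the count of 1 was 2 after median-of-ratios rescaling, with only the compared libraries and with library weights, and 0 to 1 with 1 library left out. The other 3 counts stayed within 1.5 times, at 0 for the difference between responses, 3 to 4 at 5 µM and 5 at 100 µM.

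Directions that turned belonged to values that passed in no setting. For Mn in old leaves CHLI1a turned to -0.0057 with library weights, and CHLI1b to 0.0269 with quantile normalization and -0.19 to 0.13 with 1 library left out. D1 in young leaves was 0.0032 with library weights and -0.23 to 0.13 with 1 library left out. The difference between responses of D1 was -0.0173 with quantile normalization and -0.0217 to 0.55 with 1 library left out, and that of D2 was 0.0928 with library weights and -0.38 to 0.22. G between leaf ages at 5 µM was 0.0784 after median-of-ratios rescaling and -0.27 to 0.0038 with 1 library left out. The cause was not tested.

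With the replicate number as a term (replicate block) D2 in young leaves had an adjusted p of 0.026, G in old leaves 0.0913, and the call of no member changed. Same-numbered libraries correlated at -0.47 to 0.24 in their deviations from group means, so the numbers were not taken to pair libraries. The differences between groups in the balance of synthesis and breakdown moved by less than the spread between replicates with summed FPKM, with G on the breakdown side and with 1 compared library left out; the other settings were not run for it. Its level moved more: with G included it went from 3.19 to 1.93 in young leaves at 5 µM and from 3.50 to 2.10 at 100 µM. Depth limits D1 most: in young leaves at 100 µM its spread between replicates did not exceed counting error.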
